A study of Homo sapiens with 10 samples.

Results

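Inflammatory cytokines and chemokines are small secreted proteins that cells release to recruit and activate leukocytes. The genes described here are IL8 (now named CXCL8), CXCL1, CXCL2, CXCL3, CXCL5, CCL20, IL6, LIF, IL1A and IL1B. They were chosen by name, as the non-control spots whose gene name on the array was one of these 10, out of 28089 named genes. They were measured by 15 probes in 42 spots on each array.

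The mRNA of PC-3 cells, an established cell line from a bone metastasis of a human prostate cancer, was hybridized in 1 color to 10 Agilent arrays that cover the whole human genome. The comparisons ask how the expression of these cells changed with luteolin, a plant flavonoid, with gefitinib, an inhibitor of the EGF receptor kinase, and with both, which the study examined as inhibitors of the kinase GAK. Each of 5 groups had 2 arrays, labelled as biological replicates: cells at 0 h before any addition, and cells after 24 h with the solvent DMSO, with 60 µM luteolin, with 60 µM gefitinib, or with 60 µM of each drug. All 24 h groups carried DMSO, and all groups were the same line grown in medium with serum. The labels do not say whether the replicates came from separate cultures, so the p-values measure the spread between these arrays. Each sample was RNA of a whole culture, in which fewer cells making a transcript and less transcript per cell cannot be told apart.

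For the 6 drug-treated arrays, the name of the scanner file carries another treatment than the sample label. The arrays labelled luteolin are named for gefitinib, those labelled gefitinib for the combination, and those labelled with both drugs for luteolin. The groups below follow the sample labels. With the names in their place, each pair of arrays keeps its values and its comparison with DMSO or 0 h, and the treatment it stands for changes. Comparisons between drug groups and the interaction of the drugs also change.

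Chemokines bind receptors on leukocytes and guide their movement. IL8, CXCL1, CXCL2, CXCL3 and CXCL5 share a glutamate-leucine-arginine motif before their first cysteines and attract neutrophils through CXCR1 and CXCR2, and CCL20 attracts lymphocytes and dendritic cells through CCR6. Interleukin-1 signals through MYD88, IRAK kinases and TRAF6 to NF-κB, a transcription factor that inhibitors of the IκB family hold in the cytoplasm and that binds κB sites in the promoters of many of these genes, whereas IL6 and LIF signal through IL6ST (gp130), JAK kinases and STAT3. PC-3 cells are known to secrete IL8 and IL6 and to have active NF-κB without added stimulus.

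The promoters of the members are shown first, because most of them share the κB motif. A promoter window from RefSeq (build GRCh38.p14), running from 250 bases before to 50 bases after the start site, matched 9 of the 10 members, with 2 windows for IL1A. Both strands were searched for the κB site as GGNNNTTCC. The AP-1 site was searched as TGANTCA. The TATA box was searched as TATAAA, and all matches are in capitals. The stretch from -140 to -21 relative to the start is printed for 8 members, 5′ to 3′ on the strand of the gene.
IL8, chr4:73740429-73740548, plus strand: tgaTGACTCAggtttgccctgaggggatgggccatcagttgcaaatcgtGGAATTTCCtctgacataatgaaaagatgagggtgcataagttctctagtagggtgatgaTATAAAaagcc
CXCL1, chr4:73869253-73869372, plus strand: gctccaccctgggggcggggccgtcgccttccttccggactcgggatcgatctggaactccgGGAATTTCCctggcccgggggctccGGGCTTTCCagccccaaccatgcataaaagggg
CXCL2, chr4:74099216-74099335, minus strand: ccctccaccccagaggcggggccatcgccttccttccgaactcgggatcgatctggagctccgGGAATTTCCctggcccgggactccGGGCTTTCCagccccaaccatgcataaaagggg
CXCL3, chr4:74038710-74038829, minus strand: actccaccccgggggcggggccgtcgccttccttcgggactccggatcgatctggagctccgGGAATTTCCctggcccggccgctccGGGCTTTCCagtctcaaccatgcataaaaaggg
CXCL5, chr4:73998698-73998817, minus strand: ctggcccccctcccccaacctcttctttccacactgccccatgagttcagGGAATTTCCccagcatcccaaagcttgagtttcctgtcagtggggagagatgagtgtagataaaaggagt
CCL20, chr2:227813702-227813821, plus strand: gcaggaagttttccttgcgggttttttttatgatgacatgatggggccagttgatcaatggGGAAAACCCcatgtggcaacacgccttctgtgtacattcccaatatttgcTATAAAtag
IL6, chr7:22727060-22727179, plus strand: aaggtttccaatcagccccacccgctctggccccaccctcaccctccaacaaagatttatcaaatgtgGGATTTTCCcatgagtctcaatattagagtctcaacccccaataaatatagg
IL1B, chr2:112836800-112836919, minus strand: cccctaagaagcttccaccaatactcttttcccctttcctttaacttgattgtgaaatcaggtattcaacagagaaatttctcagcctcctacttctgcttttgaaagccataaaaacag

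The κB letters were found in the windows of 7 members and in 20.05% of all 35116 promoter windows. IL8, CXCL1, CXCL2, CXCL3 and CXCL5 held GGAATTTCC, which matches on both strands at the same place, and CXCL1, CXCL2 and CXCL3 held GGGCTTTCC as well, from -53 to -45. The match in CCL20 lay on the strand opposite to the gene. No match was found in the windows of IL1A and IL1B, which says only that these letters are not in them. The AP-1 letters were found in IL8 (-137 to -131) and in IL1A, against 7.709% of all windows, and the TATA letters in IL8, CCL20 and 1 window of IL1A, against 11.53%. Over the printed stretch, 91.74% of aligned positions were identical between CXCL1 and CXCL2, 91.67% between CXCL1 and CXCL3 and 88.52% between CXCL2 and CXCL3, and 45.89% between CXCL1 and IL8. The promoters of CXCL1, CXCL2 and CXCL3 were thus close copies, and the array values of these 3 genes follow below.

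**Figure D1:**
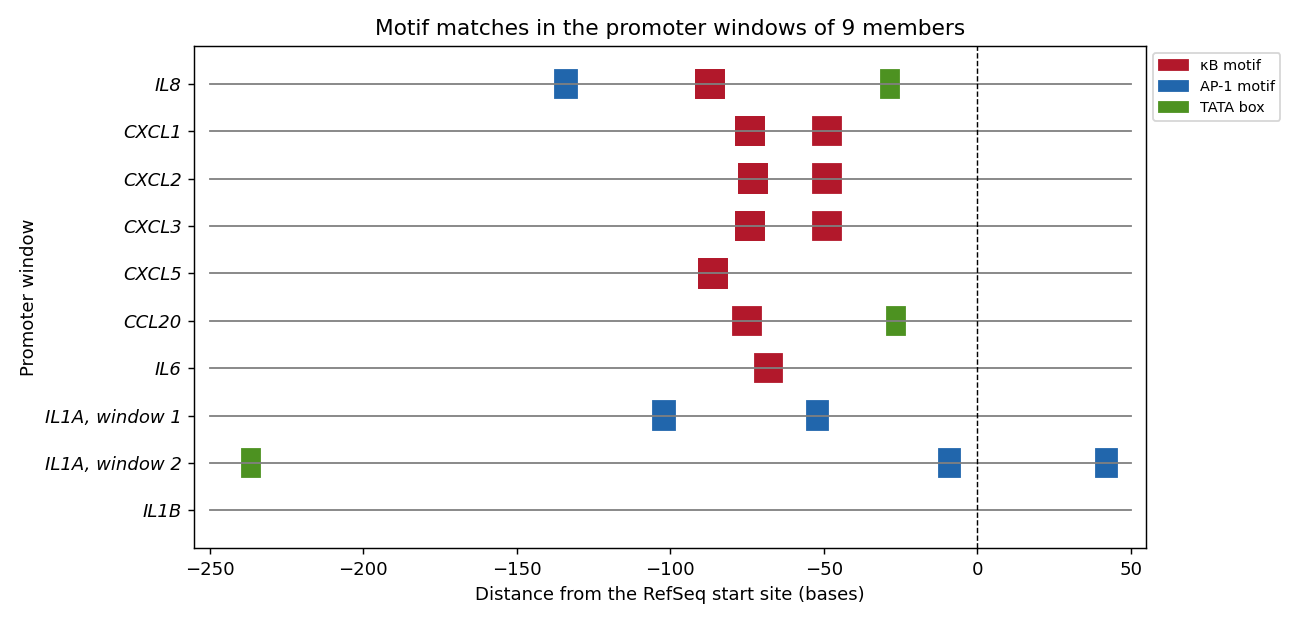
Positions of matches to the κB, AP-1 and TATA letters in the promoter windows of 9 members, with the distance from the RefSeq start site in bases on the x axis and 1 line for each window. The κB matches of IL8, CXCL1, CXCL2, CXCL3, CXCL5, CCL20 and IL6 lie between -91 and -45, and IL1B has no match of any of the 3 kinds.

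Signals below are relative signals, the processed signal of a probe divided by the 75th percentile of the non-control spots of its array. That percentile was between 1177 and 1402 on the 0 h and DMSO arrays, 1041 and 1173 with luteolin, 628 and 651 with gefitinib, and 539.8 and 865 with both drugs. Changes are differences of mean log2 relative signals from a limma model over all 10 arrays, given with their standard error (SE). A gene was called raised or lowered where its Benjamini-Hochberg adjusted p, over all probes, was under 0.05 and the log2 change was 1 or more up or down. The interaction of the drugs needed the adjusted p alone. Testing needed a probe that both arrays of some group measured well above background, which held for 9 members among 19718 genes in all. Every array measured 11 of the 15 member probes above background. Where a gene had more than 1 such probe, the one with the highest mean stands for it. Epithelial markers KRT8, KRT18, KRT19, EPCAM and CDH1 were well above background on every array. Their summed relative signal was 57.6 and 93.0 with both drugs, against 120 and 135 with DMSO. KRT19 (from 32.0 to 105 over the arrays) and KRT18 (from 16.6 to 42.6) made up most of this sum. With both drugs the median log2 change of the 5 markers was 0.28. CDH1 was raised and 0 were lowered, where 12.1% and 7.69% of all genes were. The part of these markers in the results was not tested. The androgen receptor, known to be low in this line, was above background on 0 of 10 arrays, and among the probes for KLK3, also known to be low, 2 were at background and 1, for an alternatively spliced form, was well above it on all 10 arrays.

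Against DMSO, the most changed members were CCL20, IL8, CXCL2 and CXCL3, which rose with gefitinib and with both drugs, and IL1B, which fell with luteolin and with both drugs. In the luteolin arrays, CXCL2, CXCL3 and LIF were raised and IL1B was lowered. CCL20 passed the same threshold with both groups at background, where its order is not a measured rise, which makes 4 raised and 1 lowered calls of the 9 members tested, where 7.22% of all genes were raised and 6.17% lowered. In the gefitinib arrays 6 were raised (IL8, CXCL2, CXCL3, CXCL5, CCL20 and LIF) and 0 lowered, against 15.6% and 14.3% of all genes. With both drugs 7 were raised, the 6 of gefitinib and IL6, and IL1B was lowered, against 12.1% and 7.69% of all genes. CCL20 entered these tests only through the gefitinib and combination arrays, where it was high, so its calls are no support for the counts. Among the 8 members with probes above background on all arrays, 3 were raised and IL1B was lowered with luteolin, and 5 were raised with gefitinib. With both drugs 6 of these were raised and IL1B was lowered. The shares of all genes measured on every array were not counted, so these counts have no share beside them. The median log2 change of the 9 members was 0.84, 1.39 and 1.46 in these 3 comparisons, which share the DMSO arrays, and the median of all genes was 0.08, 0.22 and 0.16. CXCL1 was not called in any of them. The counts for luteolin changed with the arrays in the fit, while the changes of the called members kept their direction. Without luteolin replicate 2, the log2 change was 1.51 for CXCL2, 1.22 for CXCL3, 1.04 for LIF and -1.24 for IL1B. With DMSO replicate 2 left out instead, it was 1.18, 1.21, 0.86 and -1.81. Without DMSO replicate 2, or without luteolin replicate 2, 0 members were called, and without replicate 1 of either group 3 were. With another background correction (normexp) 3 were called. Without either combination array, CXCL1 was called lowered with luteolin as well. The 6 members of gefitinib were called in each fit that left out 1 array. With both drugs, 5 were called without DMSO replicate 2 and 6 without DMSO replicate 1.

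**Figure D2:**
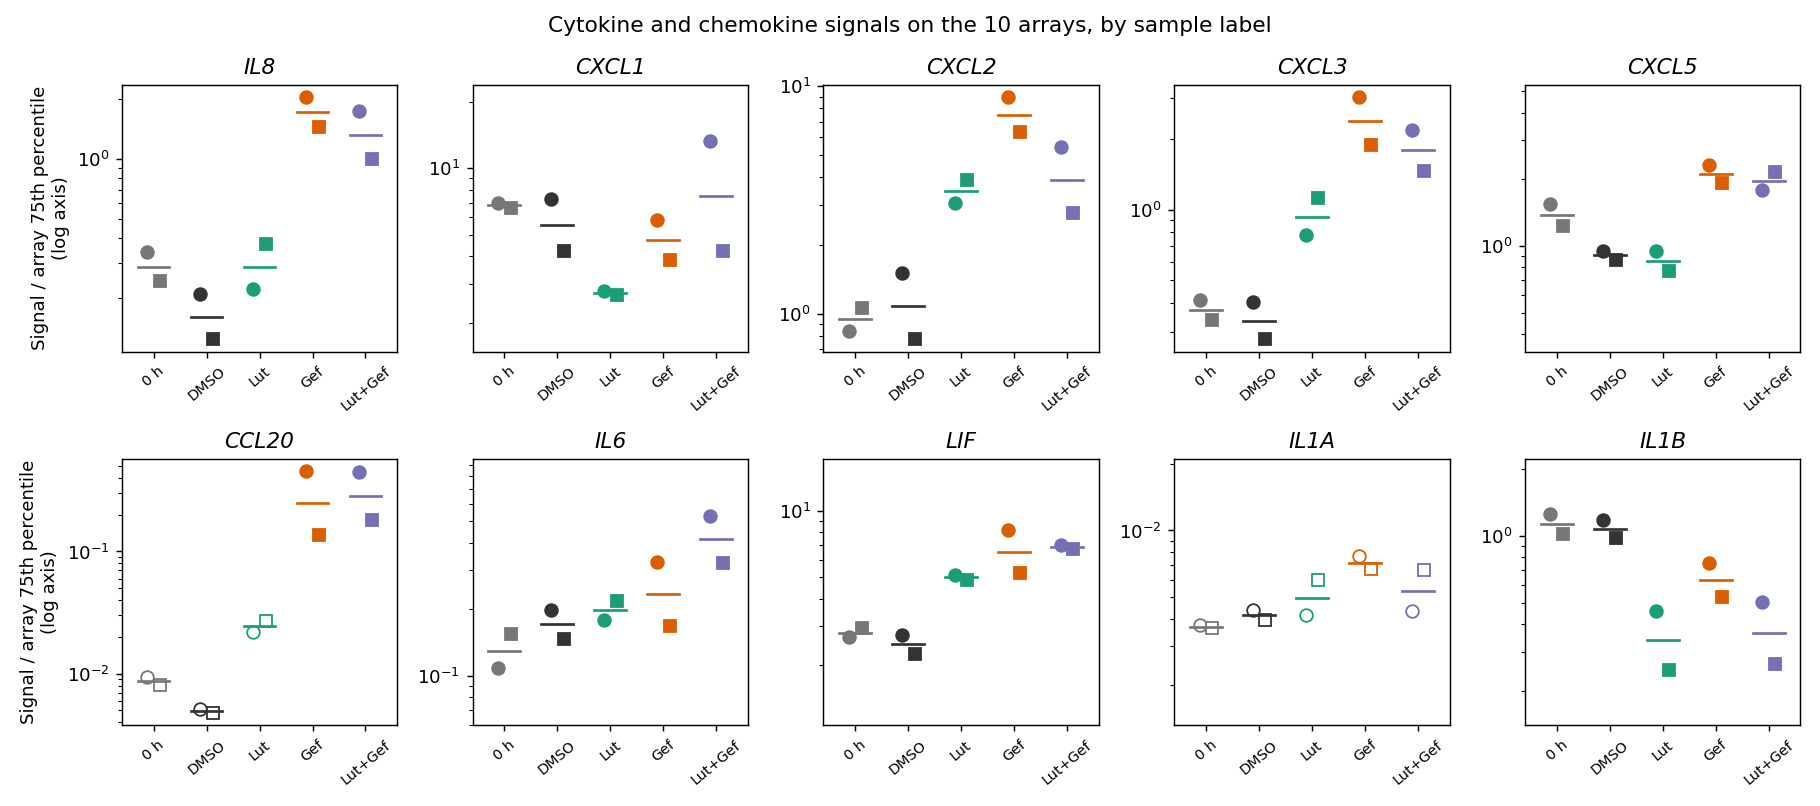
Relative signal of each member on each array, on a log axis that differs between panels, by group on the x axis. Circles are replicate 1, squares replicate 2, open symbols are not well above background, and lines mark the mean of the log2 values. IL8 and CCL20 are highest on the 4 arrays labelled gefitinib or both drugs, IL1B is lowest with luteolin and both drugs, and every symbol of IL1A is open.

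IL8, the main neutrophil chemokine of the group, was measured by a probe at chr4:74828129-74828188 (hg18, plus strand). On replicates 1 and 2, its relative signal was 0.340 and 0.243 at 0 h, 0.209 and 0.124 with DMSO, 0.222 and 0.374 with luteolin, 2.04 and 1.45 with gefitinib, and 1.73 and 0.992 with both drugs. The 4 arrays with gefitinib in their label were above all others, while the luteolin arrays overlapped with the 0 h arrays and lay just above those of DMSO. The log2 change against DMSO was 3.41 (SE 0.39, adjusted p = 0.000474 from limma) with gefitinib, a 10.6-fold rise, and 3.02 (SE 0.39, adjusted p = 0.00163) with both drugs, an 8.11-fold rise. With luteolin it was 0.84 (SE 0.39, adjusted p = 0.156 from limma) and was not called, and it was 0.08 within slide 1 and 1.59 within slide 2, the only slides that held both groups. A second probe carries the name IL8 in the array's annotation, but its accession and description are those of the red cell anion exchanger, on chromosome 17 (chr17:39682083-39682142, hg18). It was at background on all 10 arrays and was not used.

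CXCL1 stood apart from its close relatives. Its relative signal was 6.95 and 6.65 at 0 h, 7.30 and 4.22 with DMSO, 2.78 and 2.66 with luteolin, 5.86 and 3.83 with gefitinib, and 13.3 and 4.23 with both drugs. The luteolin arrays were below every other array, and the arrays of both drugs were 3.14-fold apart, the widest pair of any member in that group. No change against DMSO passed the test: the log2 change was -1.03 (SE 0.49, adjusted p = 0.164 from limma) with luteolin, -0.23 with gefitinib and 0.43 with both drugs. Without combination replicate 1 the value with both drugs was -0.39, and without replicate 2 it was 1.26 (adjusted p = 0.0461 from limma), so a single array set its direction.

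CXCL2 had 2 probes that gave the same calls. The brighter probe (chr4:75181849-75181908, hg18, minus strand) read 0.838 and 1.07 at 0 h, 1.52 and 0.773 with DMSO, 3.08 and 3.87 with luteolin, 8.98 and 6.30 with gefitinib, and 5.40 and 2.78 with both drugs. All 6 drug-treated arrays were above the 4 arrays without drug, and the gefitinib arrays were above the rest. The log2 change against DMSO was 1.67 (SE 0.40, adjusted p = 0.0181 from limma) with luteolin, 2.79 (adjusted p = 0.00125) with gefitinib and 1.84 (adjusted p = 0.00956) with both drugs. The second probe gave 1.27, 2.80 and 2.56. Without DMSO replicate 2, the rise with both drugs was 1.35 and no longer called (adjusted p = 0.0658 from limma).

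CXCL3 was also highest with gefitinib. Its brighter probe, placed at chr4:75121855-75122729 (hg18, minus strand), read 0.410 and 0.336 at 0 h, 0.404 and 0.279 with DMSO, 0.782 and 1.12 with luteolin, 3.03 and 1.90 with gefitinib, and 2.19 and 1.47 with both drugs. The 4 arrays without drug lay below the luteolin arrays, and these lay below the other 4. Against DMSO the log2 change was 1.48 (SE 0.32, adjusted p = 0.0125 from limma) with luteolin, 2.84 (adjusted p = 0.000451) with gefitinib, a 7.14-fold rise, and 2.42 (adjusted p = 0.0018) with both drugs, a 5.34-fold rise. The second probe was called in the same 3 comparisons, at 1.75, 2.80 and 2.71. The mRNAs of CXCL1, CXCL2 and CXCL3 are closely related in sequence, and how far each probe tells them apart was not tested.

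CXCL5 rose in the arrays with gefitinib in their label and not in those labelled luteolin. The values of its brighter probe (chr4:75080762-75080821, hg18, minus strand) were 1.54 and 1.24 at 0 h, 0.948 and 0.869 with DMSO, 0.951 and 0.770 with luteolin, 2.31 and 1.92 with gefitinib, and 1.80 and 2.15 with both drugs. The gefitinib and combination arrays overlapped with each other and were above the 0 h arrays, which were above DMSO, and the luteolin and DMSO arrays overlapped. The log2 change against DMSO was 1.22 (SE 0.20, adjusted p = 0.00211 from limma) with gefitinib and 1.12 (adjusted p = 0.00467) with both drugs, and -0.084 (95% confidence interval from -0.54 to 0.37) with luteolin. Against 0 h, the same arrays gave 0.61 and 0.51, below the fold the rule asks for. The dimmer probe was called in the same comparisons with DMSO, at 1.54 with both drugs.

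CCL20, which attracts CCR6-bearing lymphocytes, had the widest range of the members. Its relative signal was 0.00931 and 0.00810 at 0 h, 0.00514 and 0.00476 with DMSO, 0.0221 and 0.0272 with luteolin, 0.457 and 0.136 with gefitinib, and 0.444 and 0.182 with both drugs (chr2:228389344-228390080, hg18, plus strand). Only the last 4 arrays were well above background, and on each of them the signal was far above the 6 others. The probe thus passed the filter only through the groups where it was high, which favours its calls there. CCL20 was at least 13.9-fold higher than with DMSO in the gefitinib arrays (adjusted p = 0.000256 from limma) and at least 15.8-fold higher with both drugs (adjusted p = 0.000729), taking DMSO at the lowest signal that was well above background. In the luteolin arrays the fitted change of 2.31 passed the test (adjusted p = 0.0186 from limma), but both groups were at background, so no fold is given, and with normexp correction it was 0.61 and not called (adjusted p = 0.212).

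IL6 was called with both drugs alone. The mean of its 10 spots (chr7:22737732-22737791, hg18, plus strand) was 0.109 and 0.154 at 0 h, 0.199 and 0.146 with DMSO, 0.179 and 0.218 with luteolin, 0.326 and 0.168 with gefitinib, and 0.526 and 0.324 with both drugs. The luteolin and gefitinib arrays overlapped with those of DMSO, and the combination arrays were above DMSO but overlapped with gefitinib. With both drugs the log2 change was 1.27 (SE 0.37, adjusted p = 0.0256 from limma), 2.42-fold, and it was 0.93 without combination replicate 1 (adjusted p = 0.116). The call was also lost without DMSO replicate 1 or 2. With luteolin it was 0.21 (95% confidence interval from -0.62 to 1.05) and with gefitinib 0.45 (from -0.38 to 1.29).

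LIF, a cytokine of the IL6 family, was raised in all 3 drug groups. Its brighter probe (chr22:28966713-28966772, hg18, minus strand) read 2.70 and 2.94 at 0 h, 2.76 and 2.26 with DMSO, 5.13 and 4.88 with luteolin, 8.16 and 5.21 with gefitinib, and 6.97 and 6.73 with both drugs. All drug-treated arrays were above all arrays without drug. The log2 change against DMSO was 1.00 (SE 0.22, adjusted p = 0.0136 from limma) with luteolin, 1.39 (adjusted p = 0.00201) with gefitinib and 1.46 (adjusted p = 0.00276) with both drugs. The second probe of LIF gave 0.92, 0.55 and 1.23, so the calls with luteolin and gefitinib rested on the brighter probe. The luteolin change lay at the minimum size, and with normexp correction it was 0.97 and not called.

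IL1B, a cytokine that signals through IL1R1, moved the other way. Its signal, the mean of 10 spots (chr2:113303900-113303959, hg18, minus strand), was 1.25 and 1.03 at 0 h, 1.19 and 0.982 with DMSO, 0.458 and 0.249 with luteolin, 0.756 and 0.532 with gefitinib, and 0.504 and 0.264 with both drugs. The arrays without drug were above all 6 drug-treated arrays, and the luteolin and combination arrays overlapped. It fell by 1.68 on the log2 scale with luteolin (SE 0.38, adjusted p = 0.0142 from limma), a level 3.19-fold lower, and by 1.56 with both drugs (adjusted p = 0.0136), 2.96-fold lower. With gefitinib the log2 change was -0.77 (SE 0.38, adjusted p = 0.116 from limma). Leaving out DMSO replicate 1 or 2, luteolin replicate 2 or combination replicate 2 ended the respective call. IL1A, its relative that shares the receptor, was at background on every array (relative signal from 0.00364 to 0.00766, 2 of 100 spot readings well above background) and was not tested.

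**Figure D3:**
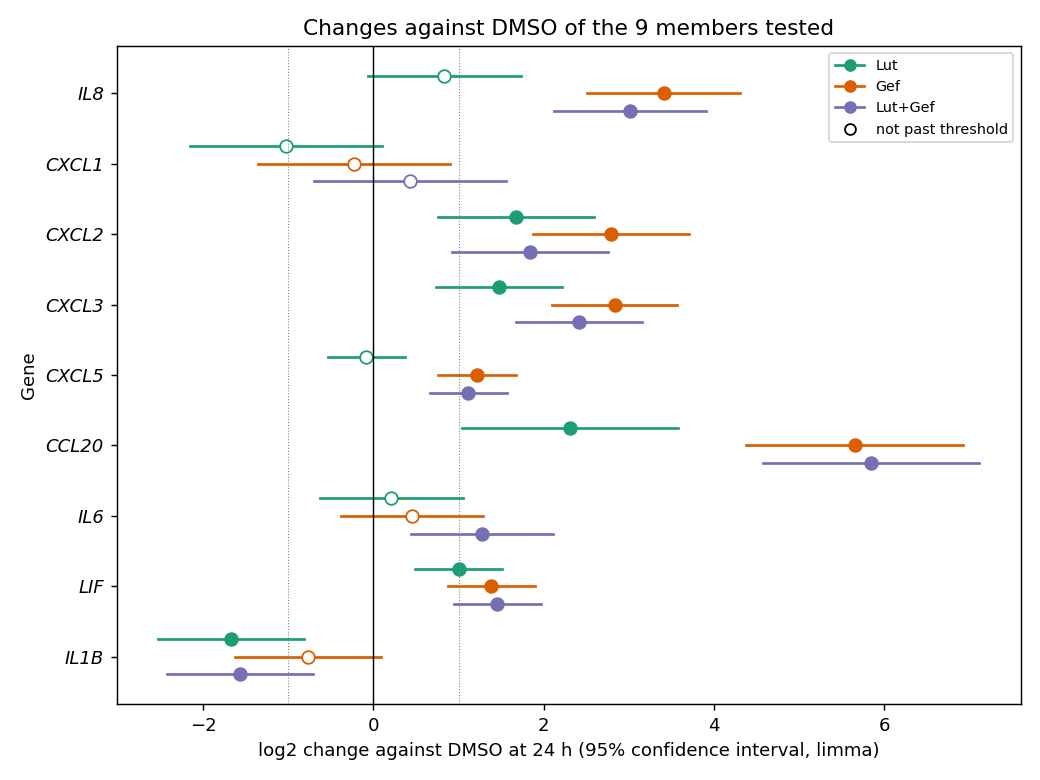
The log2 change against DMSO at 24 h of the 9 members tested, with the 95% confidence interval from limma, for luteolin, gefitinib and both drugs. Filled symbols passed the threshold and dotted lines mark a log2 change of 1 in size. The intervals of IL8, CXCL2, CXCL3, CXCL5, CCL20 and LIF lie above 0 with gefitinib and with both drugs, those of CXCL1 include 0 in all 3 groups, and CCL20 with luteolin was at background in both groups compared.

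The scaling bears on these values, since the 75th percentile of the gefitinib and combination arrays was lower than that of DMSO. On the unscaled processed signal, the changes with gefitinib were 2.37 for IL8, 1.75 for CXCL2 and 1.79 for CXCL3. They were 0.17 for CXCL5, 0.35 for LIF, -0.59 for IL6 and -1.81 for IL1B. With both drugs, IL8 was at 2.07, CXCL3 at 1.47 and IL1B at -2.51, with CXCL5 at 0.17. CCL20 was well above background in these groups and at background with DMSO, so no unscaled change is given for it. CXCL2 was then at 0.89, against 1.84 when scaled, and IL6 at 0.33, against 1.27. Before any scaling, IL8, CXCL2, CXCL3 and CCL20 were thus higher than with DMSO, and CXCL5 and LIF were higher by 0.51 or less in these groups. The unscaled change had the other sign than the scaled one for IL6 with luteolin (-0.04) and gefitinib, and for CXCL1 with both drugs (-0.51). Under quantile normalization the same members were called in the same direction in all 3 comparisons with DMSO. In these, quantile normalization moved the share of raised genes among all genes called from 52.3% to 40.2% for gefitinib and from 61.1% to 44.8% for both drugs, and normexp correction moved it to 66.2% and 71.1%.

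The solvent itself was compared with 0 h. Of the 9 members, 0 were called by limma, where 0.0254% of all genes were raised and 0.0101% lowered, and 1 (CXCL5, log2 change -0.61) had an unadjusted p under 0.05. These counts are of the brighter probes, and the dimmer probe of CXCL5 fell further, from a mean of 0.110 at 0 h to 0.0491 with DMSO. IL8 was at -0.83 (adjusted p = 0.862 from limma). Both DMSO arrays were below both 0 h arrays for IL8 and CXCL5, and how many of all genes separate in this way was not counted.

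The series design sets each 24 h group against 0 h, and these comparisons share the 0 h arrays. With luteolin 3 members were called, CXCL2 (1.87) and CXCL3 (1.33) raised and IL1B (-1.75) lowered, where 8.26% of all genes were raised and 7.85% lowered. With gefitinib 5 were raised, and 0 lowered, where 14.5% of all genes were raised and 14.5% lowered: IL8 (2.58), CXCL2 (2.99), CXCL3 (2.69), CCL20 (at least 17.0-fold) and LIF (1.21). With both drugs 6 were raised and IL1B (-1.64) lowered, where 11.5% and 8.32% of all genes were. They were IL8 (2.19), CXCL2 (2.03), CXCL3 (2.27), CCL20 (at least 19.4-fold), IL6 (1.67, adjusted p = 0.00954 from limma) and LIF (1.28). For IL8 with luteolin the log2 change against 0 h was 0.0041 (95% confidence interval from -0.89 to 0.90). Without 0 h replicate 1, or without luteolin replicate 2, 0 members were called with luteolin.

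The drug groups were also compared with each other. Luteolin arrays were lower than gefitinib arrays for 5 of the 9 members, where 18.5% of all genes were lower and 18.1% higher: IL8 (log2 difference -2.58, adjusted p = 0.000917 from limma), CXCL2 (-1.12, adjusted p = 0.0389), CXCL3 (-1.36, adjusted p = 0.00714), CXCL5 (-1.30, adjusted p = 0.000938) and CCL20 (at least 10.2-fold lower). For CCL20 the luteolin readings, though not well above background, were higher than the lowest signal that was, so the limit rests on these readings themselves. The CXCL2 call was lost in 5 of the 10 fits that left out 1 array, with quantile normalization (-0.78, adjusted p = 0.141 from limma) and without a filter on dim probes. The differences of CXCL1, LIF and IL1B were not called. Their luteolin arrays were also below both gefitinib arrays, but how many of all genes separate in this way was not counted. The combination arrays exceeded the luteolin arrays for 5 members, where 11.3% of all genes were higher and 9.75% lower: IL8 (2.18, adjusted p = 0.00393 from limma), CXCL5 (1.20), CCL20 (at least 11.6-fold, with the limit set in the same way), CXCL1 (1.46, adjusted p = 0.0434) and IL6 (1.06, adjusted p = 0.0468). CXCL1 lost this call in 5 of the 10 fits that left out 1 array and IL6 in 7 of 10, and without combination replicate 1 the difference was 0.63 and 0.71.

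Between the combination and gefitinib alone, 0 members were called by limma, where 17.2% of all genes were higher and 9.76% lower, and 1 had an unadjusted p under 0.05. That member was CXCL2, at -0.96 (95% confidence interval from -1.87 to -0.04, adjusted p = 0.0802 from limma). By its second probe the arrays overlapped, at 3.84 and 2.52 with both drugs and 4.39 and 3.07 with gefitinib. The interval was -1.29 to 0.50 for IL8, -1.08 to 1.47 for CCL20, -1.16 to 0.32 for CXCL3, -0.56 to 0.35 for CXCL5, -0.44 to 0.58 for LIF and -1.66 to 0.06 for IL1B. For IL6 the interval was -0.02 to 1.66 and for CXCL1 -0.47 to 1.79. The intervals of IL8, CXCL2, CXCL3, CCL20 and IL1B thus reached a level 2-fold lower with both drugs, and those of CCL20, IL6 and CXCL1 a level 2-fold higher.

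To ask whether the drugs added up, the log2 changes with luteolin alone and with gefitinib alone were subtracted from that of the combination. It was called for 2 members, both negative, where 16.3% of all genes had a negative and 17.9% a positive call: CXCL2 at -2.63 (SE 0.57, adjusted p = 0.00898 from limma) and CXCL3 at -1.90 (SE 0.46, adjusted p = 0.0141). Their rises with both drugs were smaller than the rises with the separate drugs added on the log2 scale. These values are of the brighter probes. The second probe of CXCL2 gave changes of 1.27 with luteolin, 2.80 with gefitinib and 2.56 with both drugs, a smaller departure. That of CXCL3 gave 1.75, 2.80 and 2.71. As a count, 2 negative calls among 9 members were near the share of all genes. IL8 was at -1.23 (adjusted p = 0.12 from limma), CCL20 at -2.12 (adjusted p = 0.0697), LIF at -0.93 (adjusted p = 0.0511) and CXCL1 at 1.69 (adjusted p = 0.0942). With slide as a block these last 3 passed the threshold, CCL20 at -2.36 (adjusted p = 0.0457 from limma), LIF at -1.08 (adjusted p = 0.0244) and CXCL1 at 1.76 (adjusted p = 0.0481). The value of CCL20 rests on background readings with DMSO and luteolin. Without DMSO replicate 2 or luteolin replicate 2, the value of CXCL3 was -1.63 and -1.64, with adjusted p = 0.0562 and 0.0527 from limma.

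The spread between the arrays of a group differed from gene to gene. The median standard deviation of the log2 values over the 9 members was 0.31 with DMSO, 0.43 with gefitinib and 0.57 with both drugs, and 0.09, 0.18 and 0.25 over all genes tested. Replicate 1 was the higher array for 9 of 9 members with DMSO, 9 of 9 with gefitinib and 8 of 9 with both drugs, and for 6 of 9 at 0 h and 4 of 9 with luteolin. The widest pairs were CCL20 with gefitinib (3.37-fold) and CXCL1 with both drugs (3.14-fold). With DMSO, both drugs and luteolin, replicates 1 and 2 lay on slides 1 and 2, and the part of the slide in this spread was not tested.

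Across the 10 arrays, the log2 signals of the members were compared as a description, since all correlations share the same arrays and groups. IL8 correlated with CCL20 at r = 0.96, CXCL3 at 0.93, CXCL5 at 0.86, LIF at 0.85, CXCL2 at 0.83 and IL6 at 0.70, and with CXCL1 at 0.28 and IL1B at -0.38. CXCL2 and CXCL3 correlated at 0.96, and CXCL1 with them at -0.08 and 0.02. Among 16272 genes well above background on all arrays, those most like IL8 were TMEM222 (r = 0.98), a transcript listed as THC2638097 (0.97), TNFAIP3 (0.97), PICALM (0.97) and a transcript listed as THC2625851 (0.96). In this ranking CXCL3 was at place 44, CXCL5 at 910, LIF at 1020, CXCL2 at 1465, IL6 at 3345, CXCL1 at 7095 and IL1B at 12396. Many other genes thus followed IL8 more closely than most members did. TNFAIP3 encodes A20, an inhibitor of NF-κB signaling that NF-κB itself induces.

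Genes around the members were taken from 8 lists, of which 78 of 87 genes were tested. Against DMSO, 17 were raised and 3 lowered with luteolin, 31 raised and 6 lowered with gefitinib, and 24 raised and 2 lowered with both drugs. Of all genes, 7.22% were raised and 6.17% lowered with luteolin, 15.6% and 14.3% with gefitinib, and 12.1% and 7.69% with both drugs, and the counts of each list below are to be read against these shares. With luteolin the sum of 20 fell to 9 without DMSO replicate 1 and to 10 without DMSO replicate 2 or luteolin replicate 2, and with both drugs the sum of 26 fell to 17 and 16 without DMSO replicate 1 and 2. Of the receptors, CXCR1 and CXCR2 were above background on 0 arrays and CCR6 on 1 array, so the receptors of the chemokines were at background in these cells, apart from that array. IL6ST, the shared receptor subunit of IL6 and LIF, was raised with gefitinib (1.22, adjusted p = 0.00112 from limma), LIFR with luteolin (1.21) and IL6R with both drugs (1.82). IL1R1, the signaling receptor of interleukin-1, was called in none of the 3 groups (0.26, 0.30 and -0.31). IL1RN, the receptor antagonist, was at least 2.60-fold higher with luteolin (adjusted p = 0.0106 from limma) by its brightest probe, and the median over its probes, 0.59, was not called. With gefitinib it passed the threshold with both groups at background, so no fold is given. The brightest probe of IL1RN was well above background on 3 arrays, so its calls are no support for the counts. IL1R2, a decoy receptor, was raised with gefitinib (1.12). IL1RAP, the accessory subunit, was at 1.12 with gefitinib by its brightest probe and at -1.09 by the median over its probes, so its direction depends on the probe. The median change of the receptor list was 0.26, 1.12 and 0.23 with luteolin, gefitinib and both drugs.

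Of 13 genes for NF-κB subunits, inhibitors and kinases, 1 was raised with luteolin, 5 with gefitinib and 5 with both drugs, and 2 were lowered with gefitinib. The 1 raised with luteolin (7.22% of all genes) and the 2 lowered with gefitinib (14.3%) were near the shares of all genes. TNFAIP3 was raised in all 3 groups, by 1.13 with luteolin (1.03 and not called with quantile normalization), 3.87 with gefitinib (adjusted p = 0.000133 from limma) and 2.84 with both drugs. NFKBIA, the inhibitor IκBα and itself a target of NF-κB, was raised with gefitinib (1.89) and with both drugs (1.46), as were NFKBIB, NFKBIZ and the subunit RELB. NFKBIE (-1.75) and REL (at least 2.96-fold lower) fell with gefitinib, REL being at -0.15 and not called with normexp correction. RELA, NFKB1, NFKB2 and the kinases CHUK, IKBKB and IKBKG were called in none of the 3 groups. The list's median change was between 0.45 and 0.48 in the 3 groups. Of 8 adaptors of interleukin-1 signaling, IRAK2 was raised in all 3 (1.55, 1.52 and 1.21), MYD88 was lowered with luteolin (-1.23), and TRAF6 (-3.05, well above background on 1 gefitinib array) and TAB1 (-1.04) were lowered with gefitinib.

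Of 9 other known targets of NF-κB, 3 were raised with luteolin, 5 with gefitinib and 5 with both drugs, with median changes of 0.82, 1.17 and 1.01, where 7.22%, 15.6% and 12.1% of all genes were raised. PTGS2, the inducible cyclooxygenase, was at background with DMSO and at least 6.50-fold, 3.12-fold and 4.93-fold higher with luteolin, gefitinib and both drugs. SOD2, a mitochondrial superoxide dismutase, was raised in all 3 (1.42, 1.43 and 1.84). ICAM1, an adhesion receptor for leukocytes, was raised with luteolin (1.43) and gefitinib (1.17) and was at 0.07 with both drugs. CFLAR, an inhibitor of death receptor signaling, was lowered with both drugs (-1.49).

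Of 8 AP-1 subunits, 4 were raised with luteolin, 5 with gefitinib and 3 with both drugs, and the medians were 0.89, 1.66 and 0.98, where 7.22%, 15.6% and 12.1% of all genes were raised. ATF3 (1.88, 3.14 and 2.60) and JUNB (1.77, 1.99 and 1.23) were raised in all 3 groups, and FOS with gefitinib (4.03) and both drugs (2.54), while FOS was at -0.84 and not called with luteolin. In the STAT3 arm, 7 genes were tested and 3 were raised with luteolin, 2 with gefitinib and 3 with both drugs, against the same shares. STAT3 itself was well above background on 0 arrays by its brightest probe (relative signal from 0.00475 to 0.0141) and was not tested. PIM1, a kinase that STAT3 is known to induce, was raised in all 3 groups (2.65, 1.63 and 1.37), and whether STAT3 had a part in this was not tested. SOCS3, the feedback inhibitor of IL6ST signaling, was lowered with gefitinib (-1.40). ZFP36, which binds cytokine mRNAs and speeds their decay, was raised with luteolin (1.75) and both drugs (1.85) and was at 0.71 and not called with gefitinib.

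**Figure D4:**
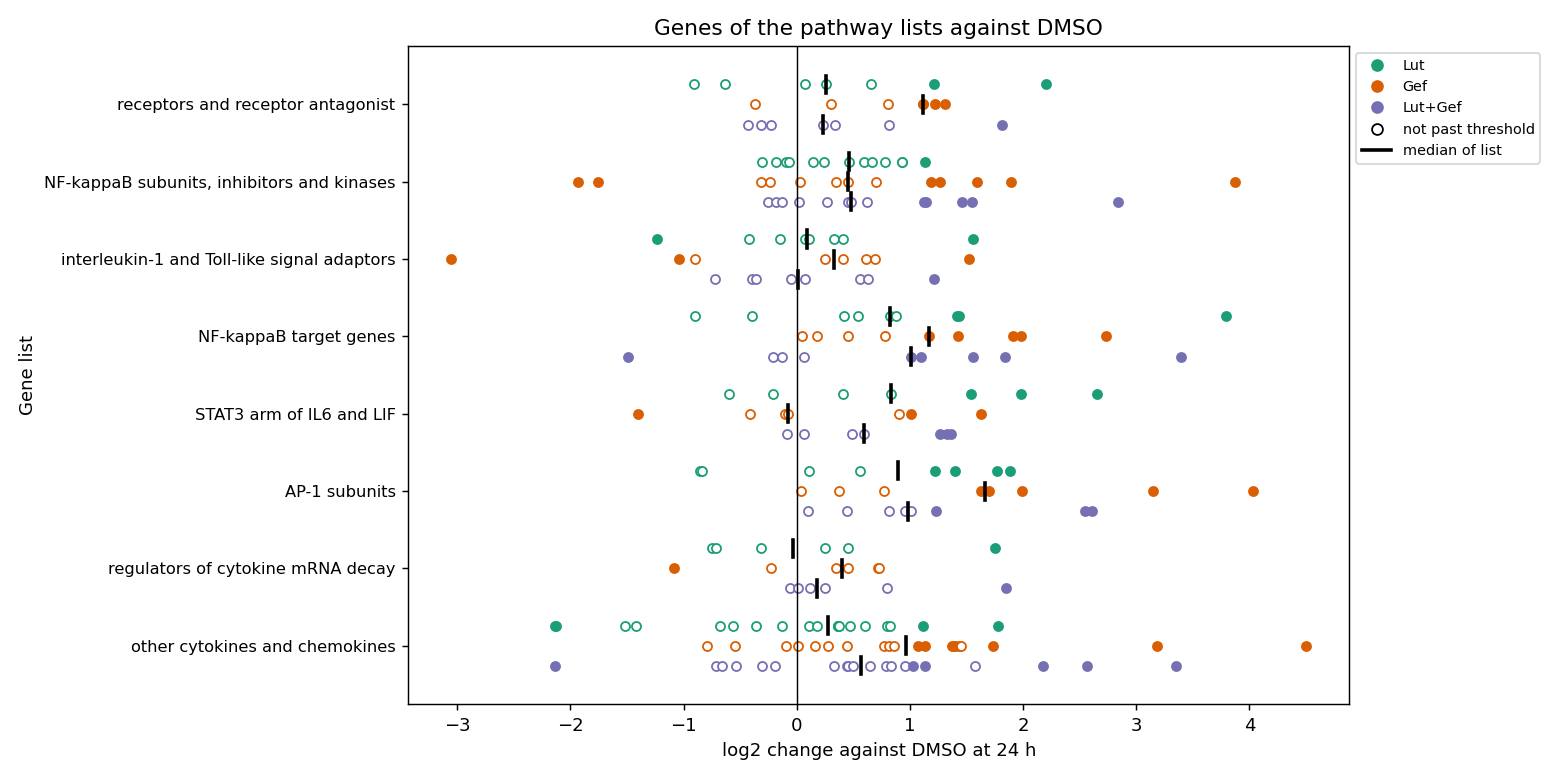
The log2 change against DMSO of each gene tested in the 8 lists, with 1 line of points for each drug group. Filled points passed the threshold, and black bars mark the median of the list. The NF-κB targets and AP-1 subunits have medians of 0.82 or more in all 3 groups, and the lists of adaptors and mRNA decay regulators have medians between -0.03 and 0.40.

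Of 20 other cytokines and chemokines tested, 2 were raised and 2 lowered with luteolin, 9 were raised with gefitinib, and 5 were raised and 1 lowered with both drugs. PPBP and TNF, counted as raised with gefitinib, were well above background on 3 arrays each, and TNF was also counted with both drugs. The filter can let such genes in through the groups where they are high, so their calls are no support for the counts. The counts with luteolin were near the shares of all genes, 7.22% raised and 6.17% lowered. CXCL6, the closest relative of CXCL5, was raised with gefitinib (1.73) and both drugs (2.56) and was at -0.68 and not called with luteolin. TNF was at background with DMSO and at least 3.25-fold higher with both drugs. With gefitinib it passed the threshold, but only 1 of the 2 arrays measured it, so no fold is given. CSF2, a growth factor for myeloid cells, was lowered with luteolin (-2.13, and -0.85 and not called with normexp correction) and raised with both drugs (2.18). IL33, an alarmin of the interleukin-1 family, was raised with luteolin (1.78, adjusted p = 0.00407 from limma) and lowered with both drugs (-2.13). For CSF2 and IL33, then, the arrays labelled luteolin and those labelled with both drugs differed from DMSO in opposite directions.

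Leukocytes make many of these cytokines, so their markers were measured. Of 6 leukocyte markers, PTPRC and LYZ were well above background on 0 of 10 arrays and ITGAM on 1 array, and CD14, CD3E and CD68 on all. The summed relative signal of the 6 was between 0.700 and 0.704 at 0 h, 0.755 and 0.812 with DMSO, 1.02 and 1.07 with luteolin, 1.44 and 1.45 with gefitinib, and 0.927 and 1.43 with both drugs. CD68 (from 0.511 to 1.20 over the arrays) made up most of this sum. The sum was higher in all drug groups than with DMSO, with PTPRC, which marks all leukocytes, at background. The part of these markers in the results was not tested.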

How the data were processed

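The authors deposited, per the file headers, the output of Agilent Feature Extraction 10.7.3.1 for each array, whose processed signal is an intensity on a linear scale with background and spatial trend subtracted and no normalization between arrays. The deposited table of values holds the same intensities. The values were read in R (version 4.3.3) by the package data.table (version 1.17.8) and fitted by limma (version 3.58.1). Control and outlier spots were left out, spots of a probe were averaged as log2 values relative to the array's 75th percentile, and 28776 of 41000 probes were kept, those that both arrays of some group measured well above background in 50% of spots or more. A limma model of the 5 groups had 5 residual and 3.36 prior degrees of freedom. Where 1 group was at background, only the lower limit of a fold is stated. All members, all receptors, list genes called in a drug group against DMSO (largest change first) and the 5 genes most like IL8 were to be named, and the uncalled NF-κB subunits and kinases were named after their values were seen. The members and lists were chosen with earlier results of these data known. Promoters were compared with Biopython 1.88. Alternatives were normexp (offset 50), quantile normalization, other filters, the deposited table, replicate, slide, file-name treatments, the median over probes, no minimum fold, fits of fewer groups or arrays, and the methods' t-test. The fit was tested on simulated arrays. The leukocyte list first had a further marker, which is not reported here.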

Additional observations from a re-analysis of the deposited data

Results flagged for a closer look

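CXCL2 and CXCL3 departed from additivity of the drugs by a test of the difference itself, on the brighter probe of each. The departure of CXCL2 was smaller by its second probe. As a count, 2 negative calls among 9 members were near the share of all genes. The interaction was -2.63 for CXCL2 (adjusted p = 0.00898 from limma) and -1.90 for CXCL3 (adjusted p = 0.0141 from limma), where 16.3% of all genes passed the same test with a negative value. By file name, where the arrays of the treatments change places, it was -0.71 for CXCL2 (adjusted p = 0.343 from limma) and -1.06 for CXCL3 (adjusted p = 0.0924 from limma), neither past the threshold.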

How the results depend on the processing

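With 2 arrays per group, 5 residual degrees of freedom and signal over background as the depth, small changes cannot be told from spread. Of the results for single members under each alternative, 1806 were counted as unchanged, 80 lost the call, 45 gained it, 22 moved and 16 reversed. All of the last came when the file names gave the treatment. Unchanged results kept their side of the threshold. They also kept their direction or, if uncalled, changed it with a shift no larger than the standard deviation within groups. Those that moved were uncalled and changed direction with a larger shift. The number of members called changed by more than 1.5 times as follows. Against DMSO with luteolin it was 3 with normexp correction and 8 by file name (5 in the main setting). Against 0 h, it was 5 with luteolin with only the groups compared in the fit, 7 by file name and 5 with no minimum fold (3), and 3 with gefitinib by file name (5). The methods' t-test on these comparisons with 0 h, at 0.05 without adjustment and after Benjamini-Hochberg adjustment, gave 1 and 0 with luteolin, 0 and 0 with gefitinib, and 1 and 0 with both drugs. For both drugs against luteolin it was 3 with quantile normalization, 3 without a filter on dim probes and 0 by file name (5), and for both drugs against gefitinib 5 by file name (0). For the interaction it was 4 with normexp correction, 5 with the replicate block and 5 with slide as a block (2). The causes were not tested.

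Leaving out each array in turn gave 0 to 6 members with luteolin, 6 to 6 with gefitinib and 5 to 8 with both drugs against DMSO, and 0 to 4, 4 to 6 and 5 to 7 against 0 h. It gave 0 to 0 for DMSO against 0 h, 4 to 5 for luteolin against gefitinib, 3 to 5 for both drugs against luteolin, 0 to 2 for both drugs against gefitinib, and 1 to 4 for the interaction. The lone array of a group was then assumed to vary like those of other groups. The replicate numbers were not shown to pair the arrays: deviations of same-numbered arrays correlated between -0.10 and 0.29 over 10 pairs of groups. With the replicate block, the interaction was also called for CCL20, LIF and CXCL1 (adjusted p = 0.0463, 0.0424 and 0.0426 from limma), luteolin against 0 h had 4 members called, and the other counts beside that of the interaction were those of the main setting.

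By file name, the log2 change of CXCL5 against DMSO was 1.12 with luteolin and -0.084 with gefitinib. Luteolin against gefitinib was then 3.54 for CCL20, 0.16 for CXCL2, 1.06 for IL6, 1.46 for CXCL1, 0.94 for CXCL3, 1.20 for CXCL5 and 2.18 for IL8. Both drugs against luteolin gave -0.19 for CCL20, -0.82 for IL6 and -0.66 for CXCL1, and both drugs against gefitinib 1.12 for CXCL2, 1.36 for CXCL3, 1.30 for CXCL5 and 2.58 for IL8.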
